A study of Mus musculus with 16 samples.

Results

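The genes described here are 3 metallothioneins (Mt1, Mt2 and Mt3), the metal-responsive transcription factor Mtf1, the zinc exporter Slc30a1, its relative Slc30a10 and 4 zinc importers (Slc39a1, Slc39a6, Slc39a8 and Slc39a10). They make up 10 of the 47937 genes in the count table. Mt1 was listed because it separated the libraries labelled KO from those labelled WT in these data, and the other 9 were listed for their role in metal handling. The values that picked Mt1 are therefore given as a description, without a test. RNA of MPP3 and MPP4 cells, multipotent progenitors of mouse bone marrow with a myeloid and a lymphoid bias, was sequenced in 16 libraries, 4 for each population and label. The MPP3 gate took Lin- Sca1+ cKit+ cells that were CD150- and CD48+, and the MPP4 gate also asked for Flt3.

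The labels give all animals as C57BL/6 with Ebf1 fl/fl alleles. Mice labelled WT carried no Cre (Ebf1fl/fl Tie2Cre+/+) and were 11 or 12 weeks old, and mice labelled KO carried the transgene (Ebf1fl/fl Tie2Cre +/cre) and were 9, 10 or 11 weeks old. Each label had 2 females and 2 males. The series' own description differs, with the transgene in both groups and no floxed allele in WT mice, and the libraries are therefore named by their labels throughout. Tie2Cre expresses Cre from the promoter of Tek (Tie2), which is active in endothelium and in hematopoietic stem cells, so that deletion is not limited to the sorted cells. By the labels, an effect of the transgene and an effect of losing Ebf1 cannot be told apart. The labels number the replicates and do not state that each came from a separate animal, so p-values measure the spread between these libraries.

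Ebf1, the floxed gene and a transcription factor of the B lineage, had 98 to 263 counts in the MPP4 libraries labelled WT and 488 to 928 in those labelled KO, the opposite of a loss. In MPP3 it had 5 to 91 counts with the WT label and 6 to 84 with the KO label. A count per gene sums all exons and does not show whether the floxed part was deleted, and every direction of KO against WT below rests on the labels. Total counts ran from 24823708 to 48703193 per library. The sorted cells carried the progenitor transcripts Kit, Cd34 and Flt3, with Flt3 at 255 to 312 CPM (counts scaled to the size of the library) in MPP3 and 1160 to 1360 CPM in MPP4 with the WT label. With the KO label Flt3 was at 204 to 283 CPM in MPP3 and 935 to 1090 CPM in MPP4. Among markers of cells that the sort excludes, Ly6g had at most 4 counts summed over any group, and the highest, Itgam, reached 11.0 CPM. Itgam was at 3.02 to 7.55 against 7.21 to 8.8 CPM in MPP3 and 5.09 to 7.97 against 7.86 to 11.0 CPM in MPP4, WT before KO. Cd79a went the other way, at 1.74 to 3.45 against 0.0261 to 0.661 CPM and 1.58 to 7.27 against 0.0 to 0.96 CPM.

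Metallothioneins are small cysteine-rich proteins that hold zinc and copper and buffer the free metal of the cell. When free zinc rises, Mtf1 binds metal response elements (MREs) and raises transcription of Mt1, Mt2 and the plasma membrane exporter Slc30a1, while Slc39a10 is a gene that Mtf1 lowers. Slc30a proteins move zinc out of the cytosol and Slc39a proteins move it in. Glucocorticoids and oxidative stress are other known inducers of Mt1 and Mt2, which usually rise together.

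The stretches before the annotated RefSeq starts of Mt1 and Mt2 are shown because both genes are known to answer to Mtf1, while their levels went apart here. Both lie on the plus strand of chromosome 8 (GRCm38), Mt1 at chr8:94178839-94179088 and Mt2 at chr8:94172368-94172617, 250 bases each. Capitals mark the MRE core, spelled TGCACNC or TGCGCNC and searched on both strands.
Mt1: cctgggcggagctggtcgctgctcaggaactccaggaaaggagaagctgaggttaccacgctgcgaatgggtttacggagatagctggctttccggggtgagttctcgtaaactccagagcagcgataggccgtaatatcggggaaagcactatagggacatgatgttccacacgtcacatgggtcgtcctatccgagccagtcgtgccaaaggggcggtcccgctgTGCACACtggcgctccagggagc
Mt2: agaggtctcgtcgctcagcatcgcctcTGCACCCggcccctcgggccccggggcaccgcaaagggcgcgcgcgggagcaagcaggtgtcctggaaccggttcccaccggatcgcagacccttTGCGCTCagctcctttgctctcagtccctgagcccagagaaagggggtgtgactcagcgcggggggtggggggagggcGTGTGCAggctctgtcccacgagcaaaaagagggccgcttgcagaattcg
In these 250 bases the core lay at 1 place before Mt1 and at 3 places before Mt2. Of 32841 RefSeq promoters with the same window, 21.4% held at least 1 match and 1.26% held at least 3. Both genes have further annotated starts inside their first exon, at 94179211 and 94179241 for Mt1 and at 94172664 and 94172860 for Mt2. From the first base of the window to the last of these starts, a stretch of 402 bases for Mt1 and 492 bases for Mt2, the core lay at 5 places for Mt1 and at 7 for Mt2. The Mt1 places lay 175, 150, 132, 68 and 54 bases before the start at 94179241, the fourth on the minus strand. The core of Ebf sites, CCCNNGGG, lay at 3 places in the Mt2 stretch and was not found in that of Mt1. In the window of 250 bases before to 50 bases after the start, Mt2 held the same 3 places, and 13.7% of all RefSeq promoters held at least 1. For the longer stretches no share over all genes was computed, for either core. RefSeq promoters were matched for 9 of the 10 genes. Matches are described as letters, and binding was not measured here.

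Mt1 (ENSMUSG00000031765, chromosome 8, 94179082 to 94180327, GRCm38) was far more abundant in every library labelled KO than in any labelled WT. In MPP3 it had 853, 600, 388 and 741 counts with the WT label (25.6, 23.5, 9.3 and 18.7 CPM) and 5448, 4867, 4064 and 5665 counts with the KO label (142, 161, 107 and 142 CPM). In MPP4 it had 221, 123, 174 and 234 counts with the WT label (5.2, 4.15, 3.58 and 5.49 CPM) and 4991, 6661, 2497 and 4671 counts with the KO label (143, 178, 92.2 and 128 CPM). A limit applies to every Mt1 value. By the labels only KO mice carry the Cre transgene, and some Cre transgenes include a stretch of metallothionein sequence behind the coding part. Whether this one does is not given in the sources used here, and a count per gene does not tell reads of the Mt1 gene from reads of such a stretch. The labels did not overlap in either population, and the lowest KO library exceeded the highest WT library 4.2-fold in MPP3 and 16.8-fold in MPP4.

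The mean of Mt1 was 19.3 ± 7.25 CPM (SD, n = 4) with the WT label and 138 ± 22.3 CPM with the KO label in MPP3, a log2 fold change of 2.84 (95% interval 2.28 to 3.41). In MPP4 the means were 4.6 ± 0.893 and 135 ± 35.5 CPM, a log2 fold change of 4.88 (4.25 to 5.50). Across all 11831 genes tested, edgeR called 8 genes in MPP3 (0.0676%) and 2 in MPP4 (0.0169%) at an FDR under 0.1, or 215 and 305 by DESeq2, and leaving out 1 library gave 1 to 137 and 1 to 41. The labels did not overlap for 4.57% and 7.27% of genes. Mt1 is among them by the way it was picked. The WT level was lower in MPP4, whereas the means with the KO label differed by less than their SD. As a difference of means, Mt1 was 119 ± 11.7 CPM (SE) higher in MPP3 and 131 ± 17.8 CPM higher in MPP4, which differed by less than the larger SE. By size, Mt1 ranked 4010 of the tested genes in MPP3 and 8215 in MPP4 with the WT label, and 613 and 624 with the KO label, counted per kb of exon.

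Both sexes showed the difference. In MPP3 the means were 24.6 and 125 CPM in females and 14.0 and 151 CPM in males, WT before KO, with 2 libraries behind each mean. In MPP4 they were 4.67 and 110 CPM in females and 4.53 and 161 CPM in males. Mice labelled KO were on average younger, and with age as a term the log2 fold change was 2.52 in MPP3 and 4.53 in MPP4. The markers of the sorted cells themselves moved with the label. In MPP4, 1 of 5 progenitor markers was called lower with the KO label (edgeR FDR 0.056), Kit was at 379 to 429 against 497 to 575 CPM and the sum of all 5 was 3300 to 3550 against 3700 to 4110 CPM, without overlap. Ly6a went the other way in MPP4, at 53.3 to 77.6 against 47.1 to 51.9 CPM, and Cd48 was at 260 to 342 against 223 to 267 CPM. In MPP3 Kit was at 642 to 690 against 702 to 835 CPM and none of the 5 was called. Among markers of other cell types, no B, plasma cell or erythroid gene was called between the labels by edgeR in either population, of 6 and 7 tested, but some summed levels went apart. The 6 B and plasma cell genes had a median log2 fold change of -2.95 in MPP3 (-3.86 to 0.35) and -0.59 in MPP4 (-6.83 to 0.09). The summed level of 9 B and plasma cell markers was 180 to 601 CPM in MPP3 with the WT label and 80.5 to 161 CPM with the KO label, mainly Igkc and Jchain, and in MPP4 it overlapped (154 to 233 against 131 to 198 CPM). The sum of 10 erythroid markers was 1390 to 1590 against 1050 to 1250 CPM in MPP3 and 974 to 1150 against 632 to 866 CPM in MPP4. Car2 made up most of that sum, and Gata1 and Klf1, which define the lineage, overlapped between the labels (Gata1 at 6.07 to 15.9 against 7.28 to 21.2 CPM and Klf1 at 4.11 to 10.3 against 4.53 to 11.8 CPM in MPP3). The summed levels of 8 stromal, 9 endothelial, 7 mast cell and basophil and 9 neutrophil markers overlapped between the labels in both populations. All 5 tested mast cell and basophil genes had positive log2 values in MPP3, with a median of 0.89 and a smallest edgeR FDR of 0.147, and Mcpt8 was at 41.9 to 67.8 CPM with the KO label against at most 37.9 CPM with the WT label. Tek itself was at 1.62 to 5.26 CPM in MPP4 with the WT label and at 9.41 to 14.0 CPM with the KO label, a log2 difference of 1.89 ± 0.34 that was not called (edgeR FDR 0.110), and in MPP3 it had means of 24.7 and 26.4 CPM (0.10 ± 0.32). Of the 5 tested endothelial genes, Tek was the only 1 with a positive log2 value in MPP4, and none was called. Emcn was at 29.9 to 33.2 CPM in MPP4 with the WT label and 22.4 to 27.8 CPM with the KO label. The part of these transcripts in the Mt1 difference was not tested. In bulk RNA, fewer cells of a type and less RNA per cell cannot be told apart.

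**Figure D1:**
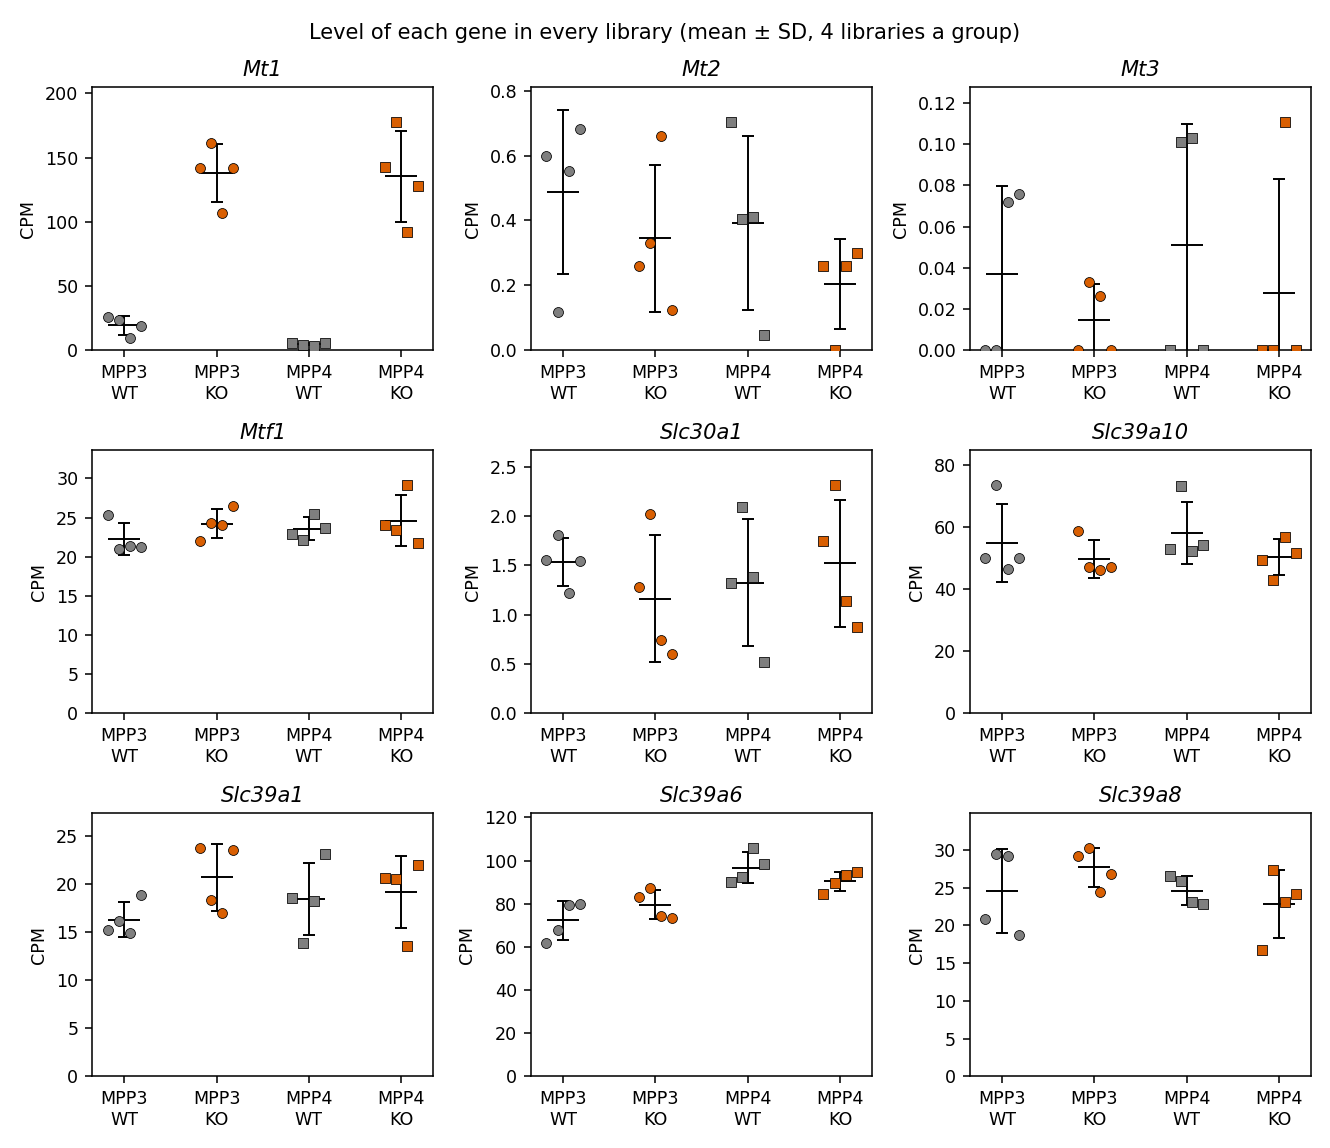
Level of 9 of the 10 genes in every library, in CPM on a linear axis from 0 that differs between panels; Slc30a10 had no count and is not drawn. Circles are MPP3 and squares MPP4, grey is WT and orange KO by label, and bars give the mean and SD of 4 libraries. Mt1 alone shows 2 separate bands, at 3.58 to 25.6 CPM and 92.2 to 178 CPM.

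Mt2 (ENSMUSG00000031762, chromosome 8, 94172664 to 94173568), which lies just before Mt1 in the genome and encodes the other metallothionein of most tissues, did not follow Mt1. In MPP3 it had 20, 3, 23 and 27 counts with the WT label and 10, 10, 25 and 5 with the KO label. In MPP4 it had 30, 12, 20 and 2 counts with the WT label and 9, 0, 7 and 11 with the KO label. The labels overlapped in both populations, and the mean was lower with the KO label in each, 0.344 against 0.487 CPM in MPP3 and 0.204 against 0.392 CPM in MPP4. The differences were within the spread (2-sided exact permutation test over 4 against 4 libraries, p = 0.429 and 0.286, where the smallest possible p is 0.0286). In a fit of all genes with at least 1 count, the 95% interval of the log2 fold change of Mt2 was -2.33 to 1.34 in MPP3 and -2.82 to 0.94 in MPP4. Mt1, picked by these contrasts, was at 2.85 and 4.87 in the same fit, given as a description. For each Mt2 count there were 35.4 Mt1 counts in MPP3 and 11.8 in MPP4 with the WT label, and 401 and 697 with the KO label.

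Mt3 (ENSMUSG00000031760), a metallothionein best known from brain, had 0 to 5 counts per library and was detected in 7 of 16 libraries. Its depth cannot show a difference of ordinary size. Slc30a10 (ENSMUSG00000026614), a transporter of manganese, had 0 counts in all 16 libraries. Where Mt2 was at 0, in MPP4 KO replicate 2, a count of 0 allows up to 3 counts. In that group 3 counts came to at most 0.111 CPM, in replicate 3, the library with the fewest counts. Mt1 and its relatives share little exact sequence. The longest exact stretch common to GENCODE transcripts of Mt1 and Mt2 was 20 bases, that of Mt1 and Mt3 was 27 bases, and no 50-base stretch of Mt1 lay in a transcript of another gene.

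Mtf1 (ENSMUSG00000028890, chromosome 4), the factor itself, was steady. It had 25.3, 21.0, 21.4 and 21.2 CPM in MPP3 with the WT label and 22.0, 24.3, 24.1 and 26.5 CPM with the KO label. In MPP4 it had 22.9, 22.1, 25.5 and 23.7 CPM and 24.1, 23.4, 29.2 and 21.7 CPM. The labels overlapped, and the log2 fold change was 0.13 ± 0.11 (SE) in MPP3 and 0.06 ± 0.11 in MPP4 (edgeR FDR 0.756 and 0.852). The 95% intervals were -0.11 to 0.36 and -0.17 to 0.29.

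Slc30a1 (ENSMUSG00000037434, chromosome 1), the exporter that Mtf1 raises with the metallothioneins, was low. It had 52, 46, 51 and 61 counts in MPP3 with the WT label and 49, 61, 28 and 24 with the KO label, and 56, 62, 67 and 22 against 61, 87, 31 and 32 counts in MPP4. The labels overlapped in both populations. The mean was 1.53 against 1.16 CPM in MPP3 and 1.32 against 1.52 CPM in MPP4, so that its direction differed between them (exact permutation test, p = 0.286 and 0.686). In the fit of all genes with at least 1 count its log2 interval was -1.38 to 0.59 in MPP3 and -0.78 to 1.18 in MPP4. Mt2, Mt3, Slc30a1 and Slc30a10 had no group with a mean over 100 counts and did not enter the main fit. The 6 genes that did had means of at least 188 counts in every group.

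None of the 4 importers was called between the labels in either population. Slc39a6 (ENSMUSG00000024270, chromosome 18), a plasma membrane importer, was the most abundant of them, with 72.2 ± 9.02 CPM in MPP3 and 96.8 ± 7.08 CPM in MPP4 with the WT label and 79.5 ± 6.76 and 90.4 ± 4.52 CPM with the KO label. Its log2 fold change was 0.14 ± 0.09 and -0.10 ± 0.09 (edgeR FDR 0.666 and 0.679). Slc39a10 (ENSMUSG00000025986, chromosome 1), the importer that Mtf1 lowers, had 49.9, 73.7, 46.4 and 50.1 CPM in MPP3 with the WT label and 58.9, 47.0, 46.3 and 47.0 CPM with the KO label. In MPP4 it had 52.9, 73.2, 52.4 and 54.3 CPM and 49.5, 42.8, 56.8 and 51.8 CPM. Replicate 2 of the WT label stood above the others in both populations, and the log2 fold change was -0.14 ± 0.15 and -0.21 ± 0.15 (edgeR FDR 0.799 and 0.575). Without MPP3 WT replicate 2 it was 0.03 in MPP3.

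Slc39a1 (ENSMUSG00000052310, chromosome 3), a widely expressed importer, came nearest to a change among the genes other than Mt1. It had 15.2, 16.2, 14.9 and 18.9 CPM in MPP3 with the WT label and 23.8, 18.4, 17.0 and 23.6 CPM with the KO label. The labels overlapped, and the log2 fold change of 0.35 ± 0.18 was not called (95% interval -0.03 to 0.72, edgeR FDR 0.538). In MPP4 the means were 18.5 and 19.2 CPM, with a log2 fold change of 0.05 ± 0.18. Slc39a8 (ENSMUSG00000053897, chromosome 3), which also carries iron, manganese and cadmium, had 24.6 ± 5.57 against 27.7 ± 2.62 CPM in MPP3 and 24.6 ± 1.93 against 22.8 ± 4.49 CPM in MPP4 (log2 fold change 0.17 ± 0.16 and -0.11 ± 0.16, edgeR FDR 0.773 and 0.812). None of the 5 genes tested beside Mt1 was called in either population, under any of the 25 alternatives per population, with a smallest FDR of 0.386. With 0.0676% and 0.0169% of all genes called, a count of 0 among 5 genes says nothing particular about them. The upper ends of their 95% intervals reached 0.72 on the log2 scale. Mtf1, Slc30a1, Slc39a6 and Slc39a8 overlap annotated genes on the opposite strand, and whether counting used strand is not given in the sources used here, so their counts may include reads of those genes.

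**Figure D2:**
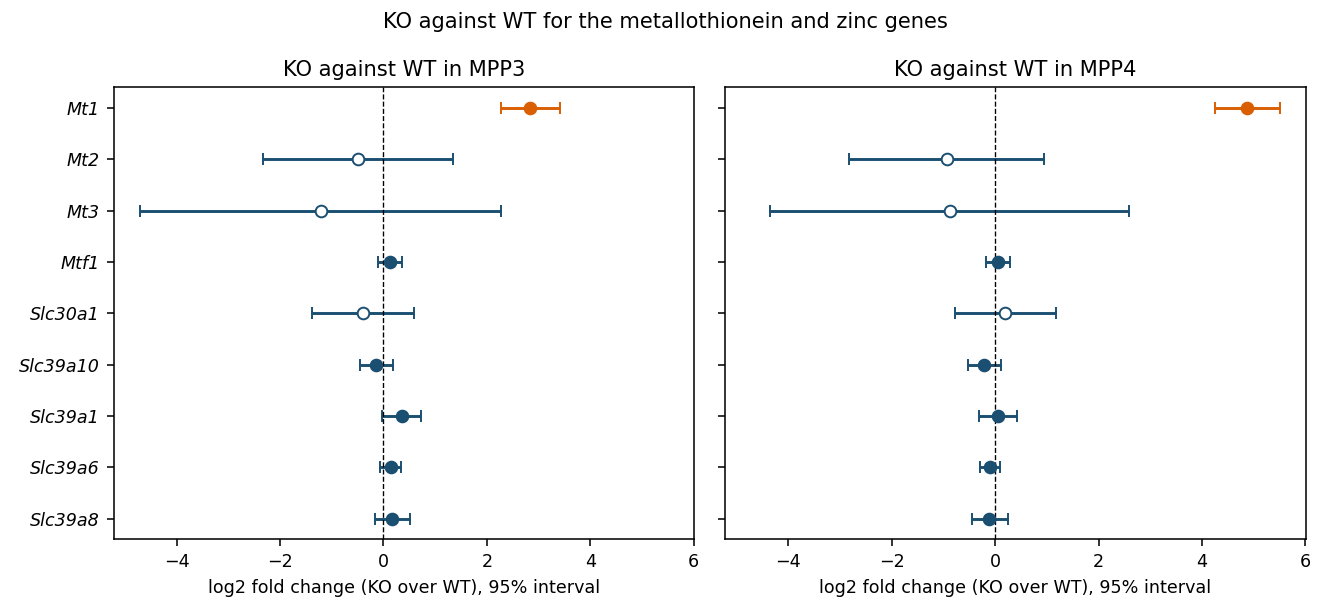
Log2 fold change of KO over WT with its 95% interval, in MPP3 and MPP4. Filled points come from the edgeR fit of 11831 genes and open points from the fit of all genes with at least 1 count; Mt1, in orange, was picked by these contrasts, and all other intervals include 0.

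For the difference between the MPP3 and MPP4 effects, edgeR called 0 of 11831 genes (0.0%), with 270 genes at an unadjusted p under 0.05, and DESeq2 called 8. For Mt1, the increase with the KO label was 119 ± 11.7 CPM (SE) in MPP3 and 131 ± 17.8 CPM in MPP4. On the log2 scale the effect of the KO label on Mt1 was smaller in MPP3, with a log2 difference of -2.03 (95% interval -2.80 to -1.26), given as a description. For the other 5 genes the difference ran from 0.06 ± 0.16 for Mtf1 to 0.29 ± 0.25 for Slc39a1 (edgeR FDR 1.0 for each). With the mouse number as a block, 2 genes were called across the table and none of these 5.

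Mt1 was picked with the same libraries that the populations are compared in, and its difference between them is given as a description. With the WT label Mt1 was higher in MPP3 than in MPP4 by 2.06 ± 0.27 on the log2 scale, a fold of 4.17 (95% interval 2.80 to 6.21). MPP3 exceeded MPP4 in each pair of libraries with the same label, number, sex and age, by 4.92, 5.68, 2.6 and 3.4-fold. With the KO label the difference was 0.03 ± 0.25, and the 4 pairs gave 0.99, 0.906, 1.17 and 1.11-fold. Tek, whose promoter drives the Cre, was also higher in MPP3 than in MPP4, at 16.5 to 32.9 against 1.62 to 5.26 CPM with the WT label and 20.7 to 32.0 against 9.41 to 14.0 CPM with the KO label.

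Slc39a6 ran the other way and was the only gene of the 5 tested beside Mt1 to be called between the populations with the WT label. It had 61.7, 67.8, 79.4 and 80.1 CPM in MPP3 and 90.2, 92.4, 106 and 98.3 CPM in MPP4, without overlap, and was lower in MPP3, with a log2 difference of -0.42 ± 0.09 (edgeR FDR 0.00493). With the KO label it had 83.0, 87.3, 74.3 and 73.4 CPM in MPP3 and 84.5, 89.4, 93.3 and 94.5 CPM in MPP4, which overlapped, and the difference of -0.19 ± 0.09 was not called (FDR 0.216), though it was with the mouse number as a block (FDR 0.0991). The test of the difference between those effects gave 0.24 ± 0.13 (FDR 1.0). Across all genes, 1790 (15.1%) were called between the populations with the WT label and 2116 (17.9%) with the KO label, or 2930 and 3346 with the block. Groups did not overlap for 15.9% and 17.2% of genes. The share called among the genes beside Mt1, 1 of 5 with the WT label and 0 of 5 with the KO label, was not tested against that background. Mtf1, Slc39a1, Slc39a8 and Slc39a10 differed between the populations by at most 0.28 on the log2 scale under either label, and none was called.

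**Figure D3:**
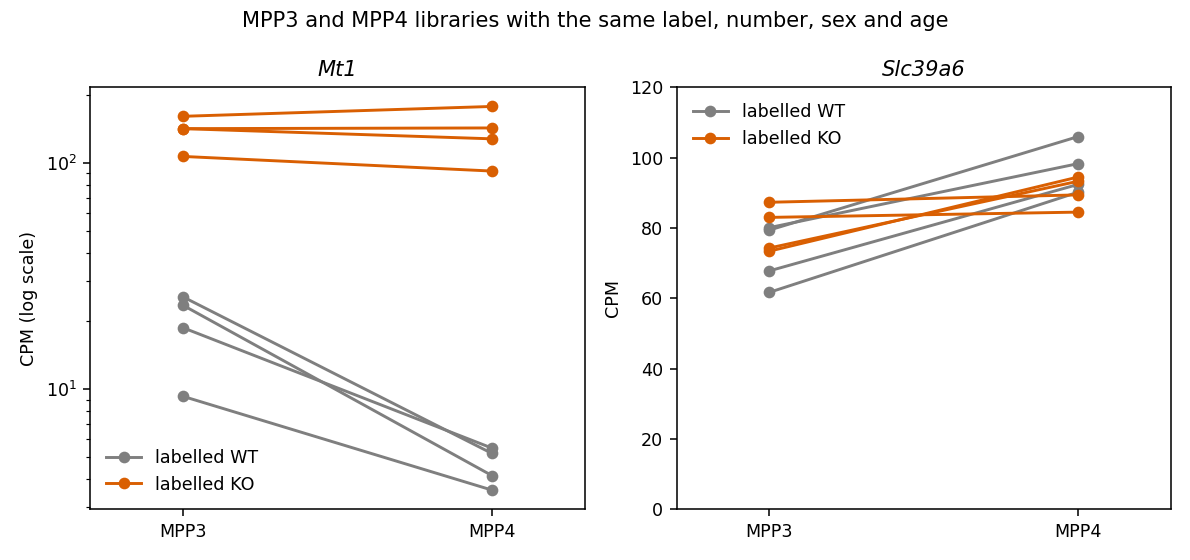
Level of Mt1 (CPM, log axis) and Slc39a6 (CPM, linear axis from 0) in MPP3 and MPP4; lines join libraries with the same label, number, sex and age, grey for WT and orange for KO. Mt1 falls from MPP3 to MPP4 in all 4 WT pairs and is level in the KO pairs, and Slc39a6 is higher in MPP4 in all 8 pairs.

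Per kb of annotated exon, the scale on which genes can be compared, Slc39a6 led in MPP4 with the WT label at 23.8 ± 1.74 CPM per kb (SD, n = 4). Slc39a10 (9.55 ± 1.65) and Slc39a1 (7.82 ± 1.59) came next, and their ranges of mean ± SD overlapped. Mt1 (3.69 ± 0.717) and Slc39a8 (3.21 ± 0.252) followed, also within their spread, ahead of Mtf1 (2.64 ± 0.164). Mt2 stood at 0.667 ± 0.458, Slc30a1 at 0.253 ± 0.123 and Mt3 at 0.0478 ± 0.0552 CPM per kb. With the KO label Mt1 led at 109 ± 28.5 CPM per kb, and Slc39a6 (22.2 ± 1.11) came next. In MPP3 with the WT label Mt1 (15.5 ± 5.82) and Slc39a6 (17.7 ± 2.22) lay within their spread, and with the KO label Mt1 was at 111 ± 17.9 and Slc39a6 at 19.5 ± 1.66 CPM per kb. With Mt1 set aside, the order by mean was the same in all 4 groups but for Slc39a1 and Slc39a10, at 8.76 ± 1.49 and 8.17 ± 0.994 CPM per kb in MPP3 with the KO label, which lay within their spread.

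Mt1 lies in a cluster with Mt2, Mt3 and Mt4 on chromosome 8, and the genes around it were read for a change of the whole region. Of 14 other annotated genes looked at within 250 kb of Mt1, 10 had a count and 6 were tested. The nearest tested gene, Nup93, a nuclear pore gene 34237 bases away, had 139 CPM in MPP3 under both labels and a log2 fold change of 0.00 ± 0.07, and 133 against 138 CPM in MPP4 (0.05 ± 0.07). Nudt21, Ogfod1, Bbs2, Herpud1 and the lincRNA 9330175E14Rik had log2 fold changes of -0.16 to 0.32, and none of the 6 was called in either population. Gnao1, Slc12a3, Gm15890 and Ap3s1-ps2 had counts but did not pass the filter, and Mt4, a metallothionein of squamous epithelium, had 0 counts.

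**Figure D4:**
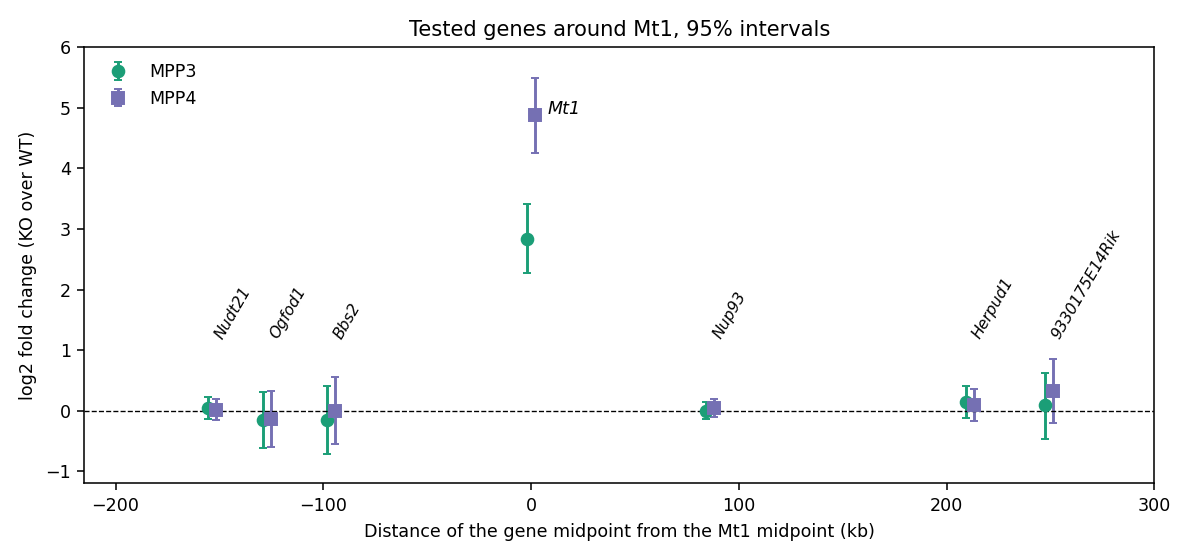
Log2 fold change of KO over WT, with 95% intervals, against the distance of each gene's midpoint from that of Mt1 in kb, for Mt1 and 6 tested genes around it (circles MPP3, squares MPP4). The 6 neighbours lie between -0.16 and 0.32, and their intervals include 0.

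The rest of the pathway was read from 7 gene lists, with the calls of the main edgeR fit. That fit called 0.0676% of all genes between the labels in MPP3 and 0.0169% in MPP4. A list without a call therefore says nothing particular about its genes. Of the 10 Slc30a exporters, 5 were tested and none was called between the labels, with a median log2 fold change of 0.08 in MPP3 and 0.18 in MPP4 beside -0.01 over all genes in both. Slc30a5, which loads zinc into the secretory pathway, had 79.7 ± 12.3 against 99.9 ± 7.33 CPM in MPP3 (0.33 ± 0.12, edgeR FDR 0.337), and Slc30a9 had -0.29 ± 0.13 in MPP4 (FDR 0.354). Slc30a6, the partner of Slc30a5, had 0.08 ± 0.10 in MPP3 and 0.22 ± 0.10 in MPP4 (FDR 0.851 and 0.380). Of the 14 Slc39a importers, 11 were tested and none was called, with medians of -0.08 and -0.11. Slc39a3 had -0.39 ± 0.18 in MPP3 (FDR 0.464), and Slc39a9 and Slc39a13 had -0.25 ± 0.12 and -0.28 ± 0.17 in MPP4 (FDR 0.386 and 0.504).

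Of 12 known Mtf1 targets, 7 were tested, and Mt1, picked by this contrast, was called between the labels. With 0.0676% and 0.0169% of all genes called, a count of 0 among the other 6 says nothing particular about them. The list holds Slc39a10, which Mtf1 lowers, beside genes that it raises, so its median has no single direction. The other 6 had log2 values of -1.29 to 0.08 in MPP3 and -0.90 to 0.14 in MPP4, with medians of -0.16 and -0.25 and a smallest FDR of 0.689 and 0.425. Hspa1b, a heat shock gene, had 5.72 ± 5.61 against 2.32 ± 1.16 CPM in MPP3, a spread as wide as its level. Selenow, a selenoprotein gene, had 317 ± 7.49 against 334 ± 18 CPM in MPP3 and 324 ± 27.9 against 356 ± 26.8 CPM in MPP4 (0.08 ± 0.07 and 0.14 ± 0.07). Ndrg1, which also answers to low oxygen, was not called between the labels (-0.30 ± 0.16 in MPP4, FDR 0.439) but was higher in MPP3 than in MPP4 by 0.75 ± 0.16 with the WT label and 0.88 ± 0.16 with the KO label (FDR 0.00404 and 0.000951).

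No gene in the lists of other inducers of metallothioneins was called between the labels by edgeR in the main fit. With 0.0676% and 0.0169% of all genes called, that says nothing particular about these genes. Of 12 oxidative stress genes 11 were tested, with medians of 0.07 in MPP3 and 0.12 in MPP4. Hmox1, heme oxygenase, had 13.2 ± 7.15 against 21.6 ± 6.27 CPM in MPP3 (0.71 ± 0.38, edgeR FDR 0.562), G6pdx had 0.21 ± 0.10 (FDR 0.456), and in MPP4 Prdx1 and Srxn1 had 0.12 ± 0.08 and 0.36 ± 0.29. All 10 glucocorticoid targets were tested, with medians of 0.03 and -0.05. Fkbp5, a chaperone of the glucocorticoid receptor, had the smallest p of the list in both populations, 48.3 ± 14.8 against 75.9 ± 13.7 CPM in MPP3 and 55.4 ± 10.9 against 93.7 ± 18.6 CPM in MPP4. Its log2 fold change was 0.65 ± 0.20 and 0.76 ± 0.20 (FDR 0.273 and 0.179), so it was not called. Klf9, another of these targets, had 0.67 ± 0.35 in MPP3 (FDR 0.550) and Pik3ip1 had -0.26 ± 0.09 in MPP4 (FDR 0.226). All 16 copper and iron genes were tested, with a median of 0.05 in both populations. The copper importer Slc31a1 (0.23 ± 0.09) and the ferritin chain Ftl1 (0.18 ± 0.08) had the smallest p in MPP3, and Sod1 (0.24 ± 0.13) and Tfrc (0.30 ± 0.18) in MPP4, with an FDR of 0.403 or more.

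Between the populations, where 15.1% (WT label) and 17.9% (KO label) of all genes were called, several of these lists held called genes. With the WT label they were 3 of 11 oxidative stress genes, 4 of 10 glucocorticoid targets, 2 of 11 importers and 1 of 16 copper and iron genes, and no list was tested against that background. With the WT label, 3 oxidative stress genes were higher in MPP3, Gclm (0.98 ± 0.18), Nqo1 (0.85 ± 0.27) and Txn1 (0.17 ± 0.06), and with the KO label these and G6pdx (0.35 ± 0.10), with an edgeR FDR of 0.0949 or less. Among glucocorticoid targets, Zbtb16, a factor of early progenitors, was higher in MPP3 by 4.07 ± 0.51 and 3.08 ± 0.49, Tsc22d3 by 0.40 ± 0.11 and 0.53 ± 0.11 and Klf9 by 1.10 ± 0.36 and 1.3 ± 0.36, whereas the decoy receptor Il1r2 was lower (-0.98 ± 0.26 and -1.11 ± 0.26). Pik3ip1 was called higher with the KO label (0.32 ± 0.09) and not with the WT label (-0.04 ± 0.08), and the test of that difference was not called (0.36 ± 0.12, FDR 1.0). The importer Slc39a11 was lower in MPP3 under both labels (-0.39 ± 0.09 and -0.35 ± 0.09). The iron transporter Slc11a2 was higher (0.45 ± 0.15 and 0.51 ± 0.15), and with the KO label so was Slc31a1 (0.30 ± 0.09), while Tfrc was lower (-0.55 ± 0.18).

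**Figure D5:**
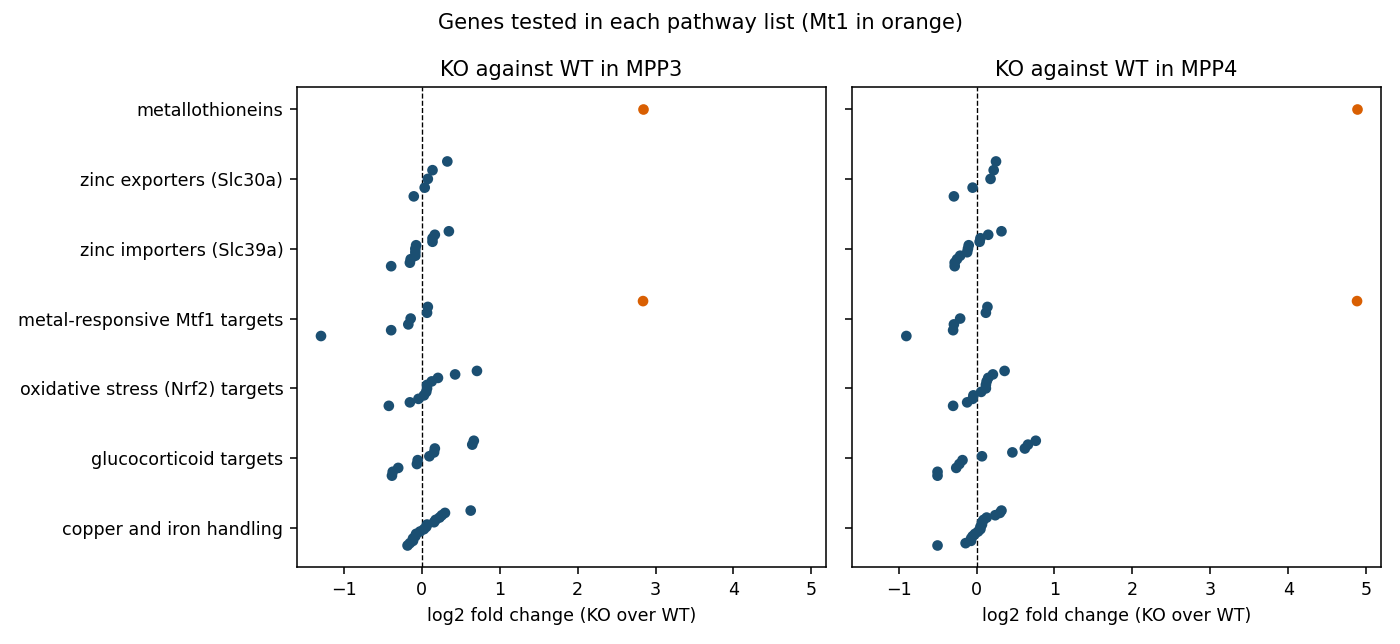
Log2 fold change of KO over WT for each tested gene of 7 lists, in MPP3 and MPP4; each point is a gene and Mt1, drawn in orange in the 2 lists that hold it, stands at 2.84 and 4.88. All other points lie between -1.29 and 0.76.

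Likeness to Mt1 was measured as Pearson's r of log2(CPM + 0.5) over the 16 libraries. Because Mt1 itself separates the labels, a high r mostly restates a difference between the labels, and r is given as a description. Over the 11830 other genes tested, r lay between -0.63 and 0.63 for the middle 95%, with a median of -0.02. The 5 other tested genes of metal handling lay inside that range, Slc39a1 at 0.35, Mtf1 at 0.24, Slc39a8 at 0.04, Slc39a6 at -0.24 and Slc39a10 at -0.39. The 5 highest were Timm23 (0.88), Lgals1 (0.87), Mrpl20 (0.87), Sfxn1 (0.85) and Psmb5 (0.84), and the 2 lowest Relb (-0.89) and Cd79a (-0.88). With each group centred on its mean, r fell to 0.02 for Timm23 and -0.12 for Relb and lay at 0.31 to 0.49 for Lgals1, Mrpl20, Sfxn1 and Psmb5 and at -0.34 for Cd79a. Over all genes that centred r lay between -0.61 and 0.63 for the middle 95%.

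Lgals1, which encodes galectin-1, had a mean of 153 and 266 CPM in MPP3 and 121 and 214 CPM in MPP4, WT before KO. Sfxn1, a mitochondrial serine carrier, had 246 and 296 CPM in MPP3 and 224 and 272 CPM in MPP4. Relb, a subunit of NF-kB, had 8.13 and 4.93 CPM in MPP3 and 10.2 and 5.87 CPM in MPP4. Cd79a, a part of the B cell receptor, had 2.67 and 0.328 CPM and 3.87 and 0.28 CPM.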

How the data were processed

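RNA of sorted MPP3 and MPP4 cells was sequenced as paired-end reads of 100 bases from polyA libraries. The authors' processing notes name STAR 2.7.3a, featureCounts 2.0.0 and the mm10 build. The deposited table holds raw counts of 47937 genes; a table of normalised values was not used. The annotation release and the strand setting are not given in the sources used here. Symbols came from GENCODE vM21 (47224 genes).

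The 11831 genes whose mean exceeded 100 counts in at least 1 group were fitted in edgeR 4.0.16 (quasi-likelihood F-test, TMM, the 4 group means over 16 libraries). Calls were made at a Benjamini-Hochberg FDR under 0.1 over all of them. CPM are relative to the TMM-scaled library. Fold changes are log2 with their SE. Genes under the filter were compared by exact permutation tests. Intervals and limits cover counting error only where they rest on counts of 1 library.

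Alternatives were RLE scaling, DESeq2 1.42.0, other filters, sex, age, replicate block, only the 8 libraries compared, and leaving out each library or mouse WT1. MPP3 and MPP4 libraries with the same label, number, sex and age deviated together (r of 0.27 to 0.55 in 8 pairs), so these numbers pair the libraries. The members and gene lists were chosen with earlier results of these data known. The genes named were all members, genes within 250 kb of Mt1 (1 is not reported here), the called genes of each list or the 2 with the smallest p in each contrast of the labels, the 5 highest and 2 lowest by likeness to Mt1, and Ebf1 and Tek.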

Additional observations from a re-analysis of the deposited data

Results flagged for a closer look

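Among 36 sets of 4 libraries (a gene in a group), 6 held a library far from the other 3, where chance gives about 1 in 20. Slc39a10 was at 73.7 CPM in MPP3 WT replicate 2 (others 46.4 to 50.1) and at 73.2 CPM in MPP4 WT replicate 2 (others 52.4 to 54.3), 2 libraries that share label, number, sex and age. Slc39a10 was also at 58.9 CPM in MPP3 KO replicate 1 (others 46.3 to 47.0). Mtf1 was at 25.3 CPM in MPP3 WT replicate 1 (others 21.0 to 21.4). Mt2 was at 0.0 CPM in MPP4 KO replicate 2 (others 0.258 to 0.301). Mt3 was at 0.111 CPM, or 3 counts, in MPP4 KO replicate 3 (others 0.0). Mt1 held no such library in any group.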

How the results depend on the processing

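The log2 fold change of Mt1 between the labels lay at 2.52 to 3.02 (MPP3) and 4.53 to 5.02 (MPP4) over 25 alternatives each. Of the other 5 genes tested, none was called between the labels in any of 250 fits. The number of genes called across the table was far less stable. In MPP3 and MPP4 it was 215 and 305 by DESeq2, 58 and 183 with sex as a term, 1 and 1 with age as a term, 29 and 23 with the replicate number as a block, and 1 and 21 with only the 8 libraries compared, and 4 in MPP4 without both libraries of mouse WT1. Leaving out 1 library gave 1 to 137 calls in MPP3 (MPP3 WT replicates 2, 3 and 4 gave 1, 137 and 40, and MPP3 KO replicates 1, 2 and 4 gave 72, 5 and 5). In MPP4 it gave 1 to 41 (MPP3 WT replicates 1 and 3 gave 24 and 4, MPP3 KO replicate 1 gave 7, MPP4 WT replicates 1, 2 and 3 gave 4, 5 and 1, and MPP4 KO replicates 1 to 4 gave 1, 1, 36 and 41). For the difference of effects it gave 0 to 1 (1 without MPP3 WT replicate 3). That difference had 8 calls by DESeq2 and 2 with the mouse as a block. With that block the populations differed in 2930 genes with the WT label and 3346 with the KO label, Slc39a6 being the 1 member other than Mt1 called with the KO label (FDR 0.0991). The block changed no other call of a member. WT and KO libraries that share only a number did not deviate together (r of -0.46 to 0.13).

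Signs turned only for values near 0, none of them called. Slc39a1 in MPP4 was -0.02 with age as a term. Slc39a8 between the populations (WT label) was 0.0033 with RLE, 0.0032 by DESeq2 and 0.11 without mouse WT1. Leaving out 1 library gave, between the labels, -0.23 to 0.03 for Slc39a10 in MPP3 and, in MPP4, -0.03 to 0.12 for Mtf1, -0.06 to 0.19 for Slc39a1 and -0.21 to 0.02 for Slc39a8. It gave -0.06 to 0.25 for Slc39a10 in the difference of effects. Between the populations it gave -0.25 to 0.05 for Slc39a10 and -0.10 to 0.11 for Slc39a8 with the WT label. With the KO label it gave -0.12 to 0.19 for Mt1, -0.07 to 0.07 for Mtf1, -0.10 to 0.05 for Slc39a10 and -0.02 to 0.19 for Slc39a1. The cause was not tested. Depth limits Mt2, Mt3 and Slc30a1, at most 87 counts per library.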
